A study of Mus musculus with 36 samples.

Results

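The comparison described here sets synapse-enriched diaphragm of ChAT-Cre;Ribo-tag mouse embryos (Cre-positive) at E15.5 against spinal cord of the same genotype and age. It takes in 6 of the 36 libraries of the study, 3 per tissue, chosen by their labelled tissue, genotype and age and by no measured value. The tissue label reads synapse-enriched muscle, and the muscle is named as diaphragm in the design text. All RNA in the series came from a purification through the HA tag of Ribo-tag, an allele that puts the tag on the ribosomal protein Rpl22 where Cre has been active, and every group, the controls included, carries this allele. ChAT-Cre is driven by the gene for choline acetyltransferase, the acetylcholine-making enzyme, and so acts in cholinergic cells, motor neurons among them. Synapse-enriched diaphragm of E15.5 embryos with Ribo-tag and no Cre (Cre-negative, 3 libraries) shows what the purification recovers from muscle without Cre and is given as its background. No Cre-negative spinal cord was analysed here, so the background of the purification in cord is not known. The same 2 Cre-positive tissues at P0.5, P10 and in adults (labelled 2 months), 3 libraries each, served to ask how the tissue difference compares with later ages. The labels do not say whether the 3 libraries of a group came from separate animals, so p-values measure the spread between these libraries, which may be technical.

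A motor neuron keeps its cell body and dendrites in the ventral spinal cord and sends its axon to a muscle, here the diaphragm, where the terminal releases acetylcholine onto receptors clustered in the muscle fibre. At this embryonic stage the phrenic axons have reached the diaphragm, muscle fibres are still forming by fusion of myoblasts, and the acetylcholine receptor holds its fetal gamma subunit. RNA of an axon terminal in muscle lies within the far larger RNA of the muscle itself and of the blood, vessels and connective tissue around it. Cord tissue holds neuronal cell bodies, with glia and vessels beside them. The cord libraries also held RNA of muscle, cartilage and bone genes, as given below. In bulk libraries fewer cells of a type and less RNA per cell cannot be told apart.

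Levels are in CPM, reads of a gene per 1000000 reads of the library, and are not scaled to gene length, so a level is compared between libraries and never between genes. Depth, recovered from the step of 1 read in each library, was 89.0 to 95.3 M reads (M, 1000000) in Cre-positive diaphragm, 63.7 to 64.2 M in cord and 79.9 to 81.9 M in Cre-negative diaphragm. At these depths 3 reads in a library correspond to 0.0315 to 0.0337 CPM in Cre-positive diaphragm and 0.0467 to 0.0471 CPM in cord. Of the 18845 genes, 15.4% to 24.6% had no read in a Cre-positive diaphragm library, 9.60% to 10.7% in a cord library and 23.3% to 34.2% in a Cre-negative one. Deeper sequencing of the diaphragm thus went with fewer genes detected there. Depth and tissue are confounded, since every cord library was shallower than every diaphragm library.

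Replicates of a group were not alike, and some libraries stood apart. Cre-positive diaphragm replicates 1 and 2 differed by 20.2 times their counting error, and replicate 3 lay close to a weighted sum of these, 0.808 of replicate 1 plus 0.191 of replicate 2, which left 1.97 times the counting error. In cord the corresponding sum for replicate 3 was 0.575 of replicate 1 plus 0.424 of replicate 2, with 2.36 times the counting error left over, and replicates 1 and 2 differed by 8.02 times. Cre-negative replicate 2 was likewise near 0.225 of replicate 1 plus 0.774 of replicate 3. The labels do not say how these libraries relate to each other, and the p-values below take all 3 as separate. Without the intermediate library of each group, 8265 genes rather than 10922 passed the threshold used below. Diaphragm replicate 2 carried the most erythroid RNA and little cartilage, bone and pancreatic RNA, and cord replicate 2 carried the most muscle RNA and the least hepatocyte RNA, as the values per library below show.

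The comparison used limma on log2(CPM + 1), and a gene was called when its Benjamini-Hochberg adjusted p over all 14831 genes tested was under 0.05. Log2 differences are diaphragm minus cord, so a positive value means a higher level in diaphragm, and on this scale the change of low genes is understated. A fold is the ratio of the 2 mean CPM values. Of the genes tested, 3189 (21.5%) were higher in diaphragm and 7733 (52.1%) were lower, which makes 73.6% called in either direction. Called genes with a difference of at least 2 on the log2(CPM + 1) scale numbered 978 (6.59%) higher in diaphragm and 2526 (17%) lower. This limit leaves out genes of low level whose CPM ratio is larger than their log2 difference shows. All 3 diaphragm values were above all 3 cord values for 23.9% of genes and below them for 57.5%. The plot of mean levels in both tissues shows most hepatocyte, erythroid and contractile genes well above the diagonal and most axonal and synaptic genes well below it.

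**Figure D1:**
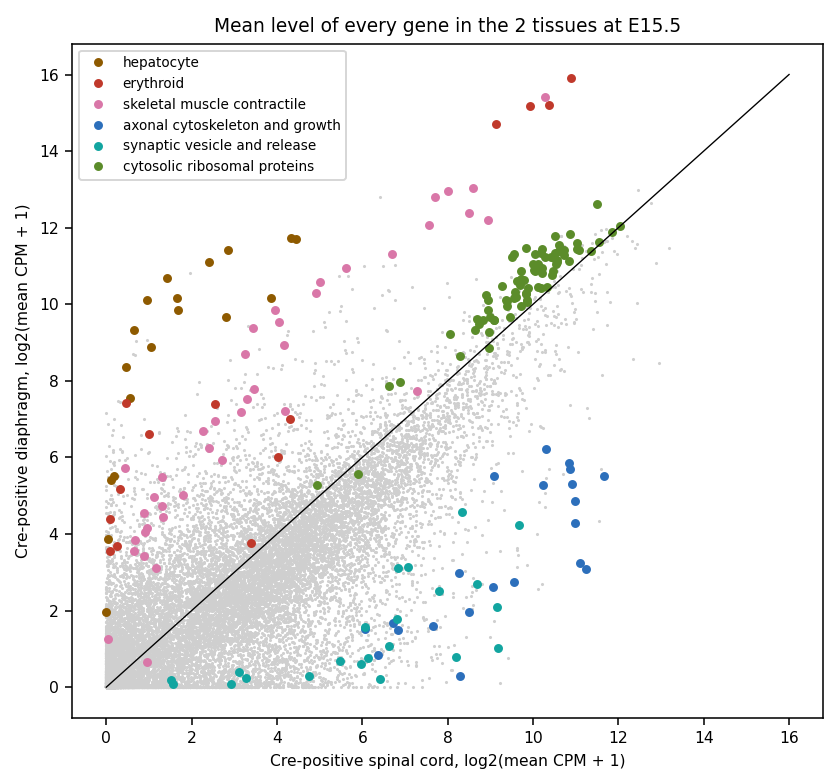
Mean level of every gene in 3 Cre-positive diaphragm libraries (vertical axis) and 3 Cre-positive spinal cord libraries (horizontal axis) at E15.5, both as log2 of mean CPM + 1, with the line of equal levels. Genes of 6 lists are coloured: the hepatocyte and erythroid genes and the contractile genes other than Myh2 lie above the line, the axonal and synaptic genes below it.

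The median log2 difference of all tested genes was -0.58, not 0. A few very abundant groups of genes filled much of each diaphragm library, and CPM is a share of the whole library. How far these groups account for the median was not tested. Scaling moved this median to -0.09 with TMM factors, -0.11 with RLE size factors, 0.01 with quantile normalization and -0.26 when erythroid and contractile genes were left out of the library total. The share of called genes that were higher in diaphragm was 29.2% in CPM, 45.7% with TMM factors, 45.2% with RLE size factors, 49.6% with quantile normalization and 40.1% with the reduced total. Lists whose median lies near it are described below against the median of all genes.

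**Figure D2:**
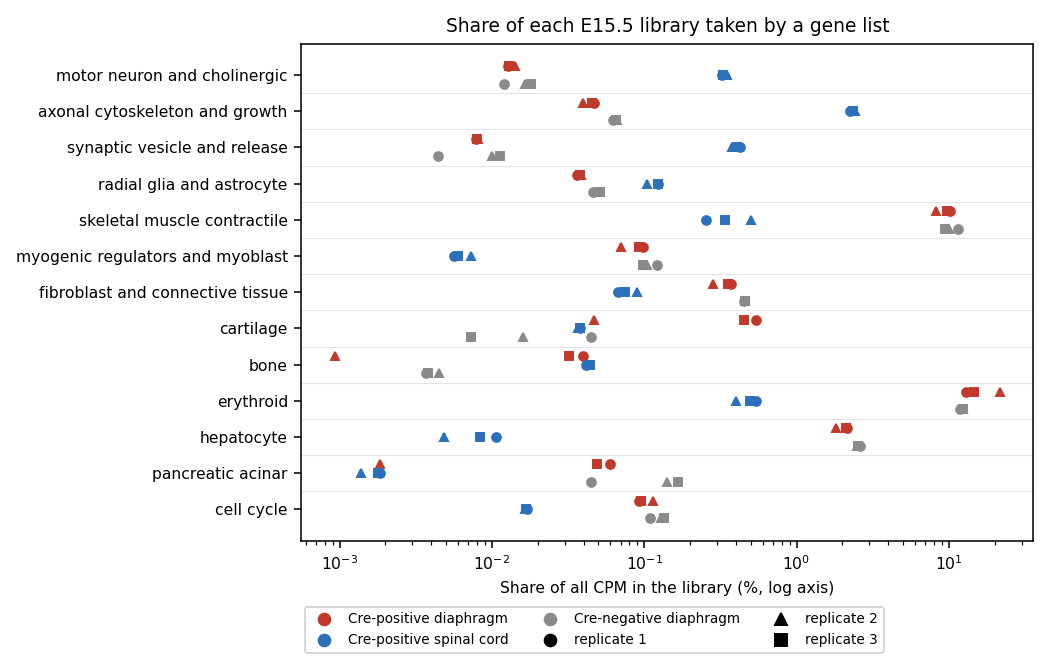
Share of all CPM of a library taken by 13 gene lists (log axis, percent), 1 point per library, for Cre-positive diaphragm, Cre-positive spinal cord and Cre-negative diaphragm at E15.5. Neuronal genes lie to the right in cord, and contractile, erythroid, hepatocyte and cell cycle genes to the right in both kinds of diaphragm library. Cartilage, bone and pancreatic points of Cre-positive diaphragm are spread, with replicate 2 lowest.

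Motor neuron and cholinergic genes were scarce in diaphragm. Of 19 such genes, all tested, 18 were lower in diaphragm (52.1% of all genes tested were) and 1 was higher, and 15 were lower by a log2 difference of at least 2 (17% of all genes). Their median log2 difference was -3.97, and -4.27 when the 2 genes without a read in diaphragm, Mnx1 and Lhx3, were set at the bound that 3 reads per library allow. Together these genes took 0.0128%, 0.0143% and 0.0130% of the Cre-positive diaphragm libraries and 0.322%, 0.350% and 0.328% of the cord libraries, against 0.0119%, 0.0164% and 0.0180% of the Cre-negative diaphragm libraries. The Cre-positive and Cre-negative diaphragm shares overlapped. An exact two-sided permutation test of 3 against 3 libraries gave p = 0.1 between the tissues, the smallest it can give. Counting error of these shares was small, with 95% Wilson half-widths of at most 1.98% of the share.

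Slc18a3, the transporter that loads acetylcholine into vesicles, had 0.0225, 1.29 and 0.333 CPM in Cre-positive diaphragm and 259, 208 and 232 CPM in cord (log2 difference -7.32, SE 0.19, adjusted p = 1.1e-17), and no read in Cre-negative diaphragm. The diaphragm levels were spread widely, with replicate 2 the highest, but every cord library was above every diaphragm library. Slc5a7, the choline transporter of cholinergic terminals, had 0.371, 0.178 and 0.355 CPM in Cre-positive diaphragm and 66.7, 61.5 and 65.3 CPM in cord (log2 difference -5.66, SE 0.11, adjusted p = 2.9e-19), again with no read in Cre-negative diaphragm. Chat, the gene that drives Cre here, had 0.157, 0 and 0.0777 CPM in Cre-positive diaphragm and 15.8, 16.2 and 15.7 CPM in cord (log2 difference -3.97, SE 0.11, adjusted p = 5.4e-17). It had no read in Cre-negative diaphragm and none in Cre-positive replicate 2, the library with the most Slc18a3.

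The transcription factor Mnx1, which sets motor neuron identity, had no read in any of the 3 Cre-positive diaphragm libraries and 5.20, 7.19 and 6.27 CPM in cord, which is at least 189-fold lower in diaphragm taking 3 reads per library as the floor. Isl1, a LIM homeodomain factor of motor and sensory neurons, had 6.41, 6.93 and 6.93 CPM in diaphragm and 122, 160.5 and 138 CPM in cord (log2 difference -4.18, SE 0.24, adjusted p = 5.4e-12). Its level in Cre-negative diaphragm, 10.6, 23.4 and 29.1 CPM, was above all 3 Cre-positive values. Prph, the intermediate filament peripherin of neurons with peripheral axons, had 39.8, 57.6 and 41.3 CPM in diaphragm and 1594, 1774 and 1628 CPM in cord (log2 difference -5.16, SE 0.54, adjusted p = 4.9e-08). Its Cre-negative values of 1.75, 31.1 and 41.5 CPM overlapped those of Cre-positive diaphragm. Ret, a receptor subunit for GDNF-family factors, had 1.21, 1.79 and 1.17 CPM in Cre-positive diaphragm, 118, 112 and 115 CPM in cord and 0.0855, 0.685 and 0.838 CPM in Cre-negative diaphragm. Rreb1, the exception, was higher in diaphragm (1.82, 1.92 and 1.82 CPM) than in cord (0.265, 0.298 and 0.297 CPM) (log2 difference 1.15).

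The RNAs of the axonal cytoskeleton and of axon growth had the largest median tissue gap of the 7 neuronal lists. All 21 were lower in diaphragm, each by a log2 difference of at least 2, with a median log2 difference of -5.59, and they took 0.0398% to 0.0465% of a Cre-positive diaphragm library, 2.24% to 2.44% of a cord library and 0.0628% to 0.0658% of a Cre-negative one. Nefm, the medium neurofilament subunit, had 5.97, 9.42 and 6.996 CPM in diaphragm and 2269, 2557 and 2386 CPM in cord (log2 difference -8.17, SE 0.16, adjusted p = 2.7e-19), which is 322-fold higher in cord. The heavy subunit Nefh had 0.315, 0.0945 and 0.244 CPM in diaphragm and 289, 335 and 309 CPM in cord, and the light subunit Nefl 4.68, 14.3 and 6.50 CPM in diaphragm and 2186, 2189 and 2254 CPM in cord. The groups were far apart in all 3 subunits, while the Cre-negative values of Nefm (7.34, 14.5 and 15.8 CPM) overlapped or lay above those of Cre-positive diaphragm. Mapt, the microtubule-binding protein tau, had 7.30, 3.16 and 6.55 CPM in diaphragm and 724, 804 and 739 CPM in cord (log2 difference -6.89).

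Genes for synaptic vesicles and transmitter release followed the same direction, with all 22 lower in diaphragm, 20 of them by at least 2 (log2), and a median log2 difference of -4.94. Their share was 0.00787% to 0.00808% in Cre-positive diaphragm, 0.378% to 0.428% in cord and 0.00443% to 0.0113% in Cre-negative diaphragm. Cplx1, the complexin that clamps and primes vesicle fusion, had 1.54, 0.472 and 1.13 CPM in diaphragm and 639.7, 522 and 571 CPM in cord (log2 difference -8.17, SE 0.19, adjusted p = 2.0e-18). Snap25, a SNARE protein of the terminal membrane, had 2.78, 4.07 and 2.98 CPM in diaphragm and 623, 507 and 582 CPM in cord (log2 difference -7.07, SE 0.13, adjusted p = 6.7e-20). The groups lay far apart in both, with little spread between the libraries of cord. Syngr3, a vesicle membrane protein, had 0.989, 0.451 and 0.722 CPM in diaphragm against 332, 255 and 290.4 CPM in cord, and Syn1, which tethers vesicles, 0.270, 0 and 0.222 CPM against 86.2, 77.7 and 87.1 CPM.

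Receptors, guidance molecules and neural RNA-binding proteins, which act mainly in the cell body, dendrites and growing axon, were also low in diaphragm. All 28 tested genes for ionotropic transmitter receptors were lower there (26 by at least 2 (log2), median -3.86, or -3.97 with 4 genes without a diaphragm read at their bound). Glra2, the fetal glycine receptor subunit, had no read in the 3 diaphragm libraries and 102, 120.1 and 112 CPM in cord, at least 3389-fold lower in diaphragm. Gabra5, a GABA receptor subunit, likewise had no read in diaphragm and 61.4, 50.5 and 57.6 CPM in cord, while Grin1, the obligate NMDA receptor subunit, had 0, 0.189 and 0.0222 CPM in diaphragm and 51.2, 48.3 and 51.7 CPM in cord. The 27 tested axon guidance genes were all lower (19 by at least 2 (log2), median -2.72). Among them L1cam, an adhesion molecule of growing axons, had 2.21, 1.74 and 2.57 CPM in diaphragm and 93.6, 90.9 and 89.8 CPM in cord (log2 difference -4.87, SE 0.14, adjusted p = 5.2e-17). All 17 neural RNA-binding protein genes were lower as well (15 by at least 2 (log2), median -3.70), for example Rbfox3, the splicing factor known as NeuN, with 0.540, 0.808 and 0.378 CPM in diaphragm and 137, 170.3 and 148 CPM in cord (log2 difference -6.60, SE 0.12, adjusted p = 5.0e-20).

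The largest negative difference of any gene with at least 50 CPM in the higher tissue and no overlap belonged to a neuropeptide gene. Calca, which encodes calcitonin and the peptide CGRP of motor and sensory neurons, had 0.146, 0 and 0.111 CPM in diaphragm and 727, 447 and 613 CPM in cord (log2 difference -9.08, SE 0.44, adjusted p = 2.6e-13). Its relative Calcb, the beta form of CGRP, had 0, 1.84 and 0.244 CPM in diaphragm and 770.4, 554 and 705 CPM in cord (log2 difference -8.78, SE 0.25, adjusted p = 6.5e-17). The 2 genes are similar in sequence, so reads may have been split between them. The other genes among the 12 largest were Cplx1, Nefm, Nefh, Nefl, Caly, Vsnl1, Ube2ql1, Cend1, Fxyd7 and Nap1l5, with log2 differences of -8.17 to -7.54. Vsnl1, a neuronal calcium sensor, had 0, 0.199 and 0.0666 CPM in diaphragm and 238, 257 and 247 CPM in cord.

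Whether neuronal RNA in Cre-positive diaphragm stood above the background of the purification was asked gene by gene. Over the 7 neuronal lists together, 151 different genes were tested, of which 147 were lower in diaphragm than in cord, 3 higher and 1 not past the threshold. Of these 151 genes, 17 (11.3%) had all 3 Cre-positive diaphragm values above all 3 Cre-negative ones, and 35 (23.2%) had them all below. Some of the 17 had a Cre-positive value under the 3-read floor, such as Gria1 (0.0112 CPM), Ntng1 (0.0105 CPM) and Slc18a3 (0.0225 CPM). A gene without a read in Cre-positive diaphragm cannot lie above, and the comparison with all genes that follows was not matched for level. Over all tested genes the shares were 16.1% above and 20.9% below, so the neuronal genes showed no larger share above the background than genes at large. Besides Slc18a3, Slc5a7, Ret and Elavl3, the 17 held Syp, a vesicle membrane protein, with 3.09, 8.69 and 4.56 CPM in Cre-positive diaphragm, 399, 415 and 414 CPM in cord and 0.427, 2.08 and 2.81 CPM in Cre-negative diaphragm. Stmn3, a regulator of microtubules in axons, had 21.9, 15.0 and 18.9 CPM in Cre-positive diaphragm, 2000.3, 2070.3 and 2048 CPM in cord and 1.67, 9.20 and 12.5 CPM in Cre-negative diaphragm. Both genes were named after their values were seen.

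Cord also held more RNA of other neural cell types, although ChAT-Cre acts in cholinergic cells. Of 17 tested markers of spinal interneurons, 14 were lower in diaphragm (52.1% of all genes tested were), 2 (En1 and Gata3) were higher and Foxp2 was not past the threshold. Their median was -1.48, against -0.58 for all genes, or -3.89 with 6 genes without a diaphragm read at their bound. Slc17a6, the glutamate transporter of excitatory vesicles, had 0.0112, 0 and 0 CPM in diaphragm and 31.4, 24.9 and 30.1 CPM in cord. Slc32a1, the transporter that fills inhibitory vesicles, had no read in diaphragm and 10.9, 9.62 and 11.5 CPM in cord. Of 18 radial glia and astrocyte markers 14 were lower (52.1% of all genes were) and 3 higher (median -2.43). Their summed share was 0.0360% to 0.0385% in Cre-positive diaphragm and 0.104% to 0.124% in cord. Fabp7, a lipid-binding protein of radial glia, had 7.08, 17.6 and 9.38 CPM in diaphragm and 837, 693 and 853 CPM in cord (log2 difference -6.09, SE 0.42, adjusted p = 9.3e-11). The 3 higher ones were Nes, Vim and Notch1, which are not restricted to glia. Nes, the filament nestin of neural and muscle precursors, had 20.3, 13.1 and 18.2 CPM in diaphragm and 4.22, 4.10 and 3.53 CPM in cord. Their part in the neuronal differences was not tested.

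Oligodendrocyte-lineage markers were lower in diaphragm in 11 of 14 cases, where 52.1% of all genes were (median -1.63, against -0.58 for all genes). Olig2, the lineage factor shared by motor neuron and oligodendrocyte progenitors, had no read in diaphragm and 6.01, 3.77 and 5.91 CPM in cord. Cspg4, a proteoglycan of oligodendrocyte precursors and also of pericytes, was higher in diaphragm (21.3, 3.40 and 17.7 CPM) than in cord (2.27, 2.26 and 2.09 CPM), with replicate 2 far below the other diaphragm libraries. Markers of Schwann cells, which accompany peripheral axons, were mixed: 7 of 12 were lower in diaphragm, 2 higher and 3 not past the threshold (median -0.95). Of all genes 52.1% were lower, with a median of -0.58, so this count is near the background. On recovered reads DESeq2 and edgeR each called 4 lower. Pmp22, a myelin protein also made by fibroblasts, had 189, 114 and 175 CPM in diaphragm and 39.8, 32.1 and 37.9 CPM in cord (log2 difference 2.07, SE 0.23, adjusted p = 8.0e-08).

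**Figure D3:**
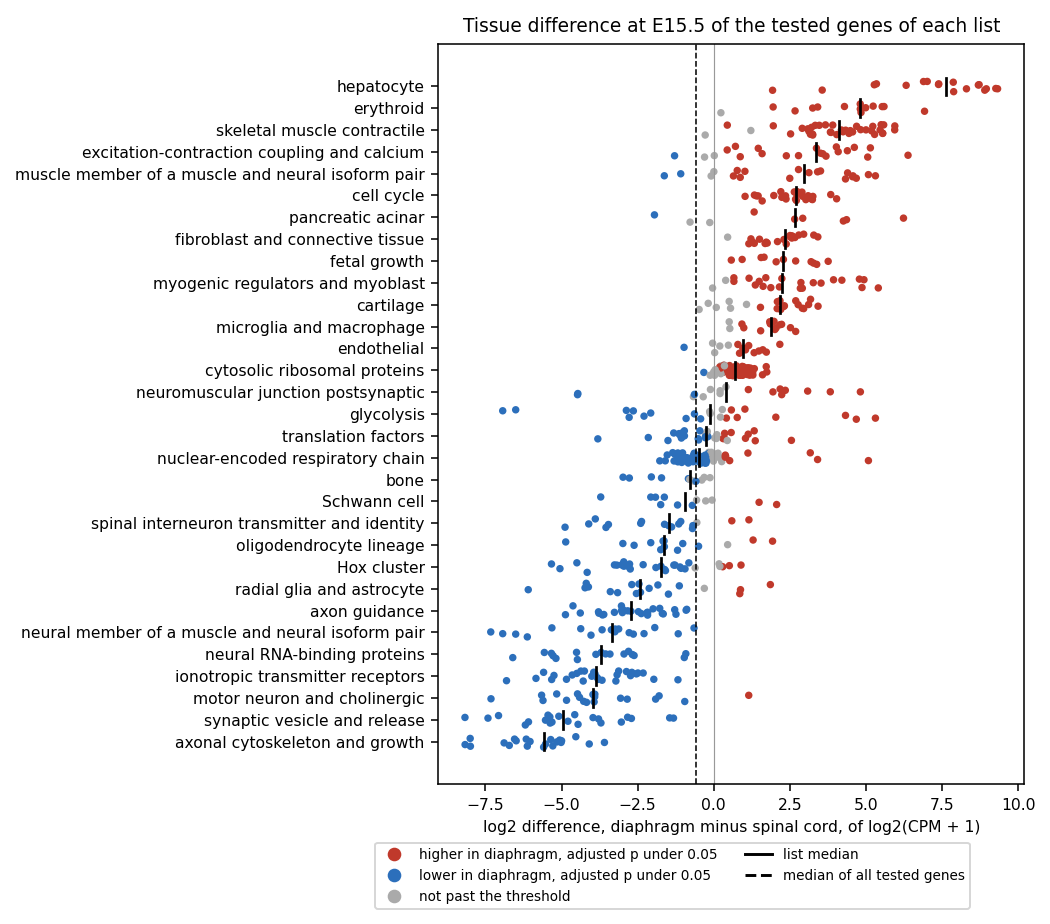
Log2 difference, diaphragm minus spinal cord, of every tested gene of 31 lists at E15.5, 1 point per gene, ordered by list median (short black line). The dashed line marks the median of all tested genes, -0.58; hepatocyte, erythroid and contractile genes lie farthest to the right and axonal and vesicle genes farthest to the left.

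Muscle genes made up a large part of the diaphragm libraries. The 40 contractile genes took 10.2%, 8.21% and 9.65% of Cre-positive diaphragm, 0.254%, 0.504% and 0.337% of cord and 11.4%, 9.999% and 9.42% of Cre-negative diaphragm. Of these genes 38 were higher in diaphragm (21.5% of all genes were), 36 of them by at least 2 (log2) (6.59% of all genes), with a median log2 difference of 4.12. The adult fast myosins Myh2 and Myh4 did not pass the threshold (log2 differences -0.28 and 1.22). The labelled muscle tissue carried the markers of its label in Cre-positive and Cre-negative libraries alike.

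Acta1, skeletal muscle alpha-actin, had 8970.0, 7429.8 and 8814 CPM in Cre-positive diaphragm, 281, 515 and 357 CPM in cord and 10728, 9444 and 8928 CPM in Cre-negative diaphragm (log2 difference 4.49, SE 0.47, adjusted p = 3.9e-08). Cord replicate 2 had the highest cord value, as it did in 36 of the 38 contractile genes called higher, whose median cord level was 3.13%, 6.06% and 3.87% of the diaphragm mean in the 3 cord libraries. Tnni1, the troponin I of slow fibres, had 701, 606 and 675 CPM in diaphragm and 7.69, 12.6 and 9.36 CPM in cord (log2 difference 5.95, SE 0.24, adjusted p = 2.0e-14). Myl4, the light chain of embryonic muscle and atria, had 1010.1, 785 and 962 CPM in diaphragm and 9.57, 19.98 and 13.8 CPM in cord, 63.6-fold higher in diaphragm. Tnnt2, the troponin T of heart and immature skeletal muscle, had 443, 357 and 439 CPM in diaphragm and 4.08, 14.3 and 7.16 CPM in cord, and Actn2, the Z-disc alpha-actinin, 871, 533 and 801 CPM in diaphragm and 8.94, 23.5 and 13.9 CPM in cord. The groups did not overlap in any of these 5 genes.

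Genes for excitation-contraction coupling went the same way, 18 of 21 higher in diaphragm, 1 lower and 2 not past the threshold (median 3.37). Sln, sarcolipin, a small inhibitor of the sarcoplasmic calcium pump, had 7568, 6444 and 7298 CPM in diaphragm and 75.2, 101 and 77.9 CPM in cord (log2 difference 6.38, SE 0.34, adjusted p = 1.6e-12). Casq2, a calsequestrin that binds calcium in the reticulum, had 782, 402 and 701 CPM in diaphragm and 11.5, 26.2 and 16.6 CPM in cord, with diaphragm replicate 2 the lowest. Atp2a2, the pump SERCA2 of slow muscle, heart and neurons, was the member lower in diaphragm, with 49.98, 39.7 and 48.4 CPM against 115, 114 and 111 CPM in cord (log2 difference -1.29, SE 0.15, adjusted p = 2.4e-07).

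Genes of muscle formation were higher in diaphragm. Of 23 tested myogenic regulators and myoblast genes, 21 were higher in diaphragm and 2, Six4 and Eya1, did not pass the threshold (median 2.24). Myog, the factor that starts muscle differentiation, had 111, 60.9 and 107 CPM in diaphragm and 1.26, 3.39 and 1.64 CPM in cord (log2 difference 4.93, SE 0.31, adjusted p = 2.0e-11). The fusion proteins Mymk and Mymx, which merge myoblasts into fibres, were both far higher in diaphragm. Mymk had 105, 52.3 and 92.0 CPM in diaphragm and 0.856, 3.30 and 1.64 CPM in cord, and Mymx 88.9, 118 and 94.1 CPM in diaphragm and 1.42, 1.33 and 1.36 CPM in cord. Mymx was highest in diaphragm replicate 2, where Mymk and Myog were lowest.

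The list of genes for the postsynaptic side of the neuromuscular junction gave a mixed picture. Of 17 tested genes 8 were higher in diaphragm, 3 lower and 6 not past the threshold, with a median log2 difference of 0.40. Their summed share went the other way, 0.0181%, 0.0143% and 0.0174% in Cre-positive diaphragm and 0.0282%, 0.0236% and 0.0260% in cord. The 3 lower members were Ache, Nrg1 and Dtna. Ache is also in the motor neuron list and is made by cholinergic neurons, and Nrg1 is released by motor axons. The summed share thus takes in RNA of neurons as well as of muscle, and it was not taken without Ache and Nrg1. Among the higher ones were subunits of the muscle acetylcholine receptor and its anchor. Chrng, the gamma subunit of the fetal receptor, had 50.2, 36.2 and 44.7 CPM in Cre-positive diaphragm, 0.405, 0.942 and 0.422 CPM in cord and 27.7, 23.6 and 26.5 CPM in Cre-negative diaphragm (log2 difference 4.82, SE 0.24, adjusted p = 5.7e-13). All 3 Cre-positive diaphragm values were above the cord values and above the Cre-negative ones. Chrna1, the ligand-binding alpha subunit, had 8.82, 7.47 and 9.63 CPM in diaphragm and 1.11, 1.37 and 0.906 CPM in cord (log2 difference 2.18, SE 0.23, adjusted p = 4.0e-08). Chrnd, the delta subunit, had 30.7, 5.45 and 24.7 CPM in diaphragm and 0.311, 0.188 and 0.172 CPM in cord, replicate 2 being well below the other diaphragm libraries. Rapsn, which clusters the receptor, had 18.0, 29.6 and 20.7 CPM in diaphragm and 1.401, 2.15 and 1.73 CPM in cord.

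Chrne, the epsilon subunit that replaces gamma in the adult receptor, had 0.236, 0.714 and 0.378 CPM in Cre-positive diaphragm and 0.0311, 0.0785 and 0.141 CPM in cord and did not pass the threshold (log2 difference 0.40, adjusted p = 0.12). Its diaphragm values all lay above the cord values, and tests on the recovered reads called it higher (adjusted p = 0.017 with DESeq2 and 0.034 with edgeR). Ache, the acetylcholinesterase made by both muscle and cholinergic neurons, was lower in diaphragm, with 8.12, 4.36 and 7.496 CPM against 186, 145 and 166 CPM in cord (log2 difference -4.48, SE 0.46, adjusted p = 3.9e-08). Nrg1, a growth factor released by motor axons, had 0.382, 0.525 and 0.522 CPM in diaphragm and 31.5, 30.6 and 32.6 CPM in cord (log2 difference -4.46, SE 0.14, adjusted p = 2.1e-16). Its diaphragm values were above those of Cre-negative diaphragm, 0.0122, 0.0374 and 0.1001 CPM. Dtna, alpha-dystrobrevin of the postsynaptic membrane, had 21.9, 13.1 and 21.1 CPM in diaphragm and 30.7, 27.2 and 28.8 CPM in cord, a log2 difference of -0.63 that was -0.03 with TMM factors and 0.11 with quantile normalization.

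The start regions of 2 of these muscle genes are shown because the E-box CAGCTG, a site recognised by myogenic factors, was looked for in them, after the values had been seen. Sequences are from RefSeq on GRCm38.p6, run 5′ to 3′ on the strand of the gene from 250 bases before to 50 bases after its start, and have the E-box in capitals.
Chrng, chr1:87205561-87205860, plus strand: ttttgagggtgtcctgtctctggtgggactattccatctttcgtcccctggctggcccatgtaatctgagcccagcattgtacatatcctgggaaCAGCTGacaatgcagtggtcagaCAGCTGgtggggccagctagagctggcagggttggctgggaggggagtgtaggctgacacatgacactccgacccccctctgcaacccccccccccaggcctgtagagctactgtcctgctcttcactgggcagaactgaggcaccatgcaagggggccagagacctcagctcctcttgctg
Acta1, chr8:123894726-123895025, minus strand: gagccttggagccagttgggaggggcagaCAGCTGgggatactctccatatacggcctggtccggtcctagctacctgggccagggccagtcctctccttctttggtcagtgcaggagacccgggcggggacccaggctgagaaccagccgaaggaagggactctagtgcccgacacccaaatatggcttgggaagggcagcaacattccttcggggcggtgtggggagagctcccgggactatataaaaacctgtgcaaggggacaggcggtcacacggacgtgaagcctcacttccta
The Chrng region holds 2 E-boxes and the Acta1 region 1. Of all 32851 start regions of this length, 16.3% held CAGCTG on either strand (the motif reads the same on both), against 16 of 37 (43.2%) for 32 of the 40 contractile genes and 6 of 15 (40%) for 12 of the 21 coupling genes. Among genes higher in diaphragm by at least 2 (log2) it was 21.3% of 891 regions and among those lower by as much 18.1% of 2634. For the vesicle and release genes, all lower in diaphragm, it was 8 of 22 (36.4%). A match is a run of letters and no measured binding site.

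Pairs of genes that make the muscle and the neural or general form of one protein divided between the tissues. Of 20 muscle members, 16 were higher in diaphragm, 2 lower and 2 not past the threshold (median 2.96), and of 19 tested neural members all 19 were lower in diaphragm (median -3.33). Ckm, muscle creatine kinase, had 2205, 1816 and 2104 CPM in diaphragm and 59.0, 126 and 80.9 CPM in cord (log2 difference 4.57, SE 0.55, adjusted p = 2.9e-07), whereas Ckb, the brain form, had 61.4, 44.5 and 60.7 CPM in diaphragm and 553, 559 and 569.6 CPM in cord (log2 difference -3.33, SE 0.20, adjusted p = 8.2e-12). Eno3, muscle enolase, had 1518, 1087 and 1439.7 CPM in diaphragm and 37.8, 71.0 and 49.2 CPM in cord (log2 difference 4.68, SE 0.47, adjusted p = 2.6e-08). Eno2, neuronal enolase, had 0.798, 0.378 and 0.700 CPM in diaphragm and 197, 197 and 195 CPM in cord (log2 difference -6.93, SE 0.12, adjusted p = 5.0e-20). The groups did not overlap in any of these 4 genes. Among the muscle members lower in diaphragm was Nos1 (log2 difference -1.62), the neuronal nitric oxide synthase that muscle also uses.

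**Figure D4:**
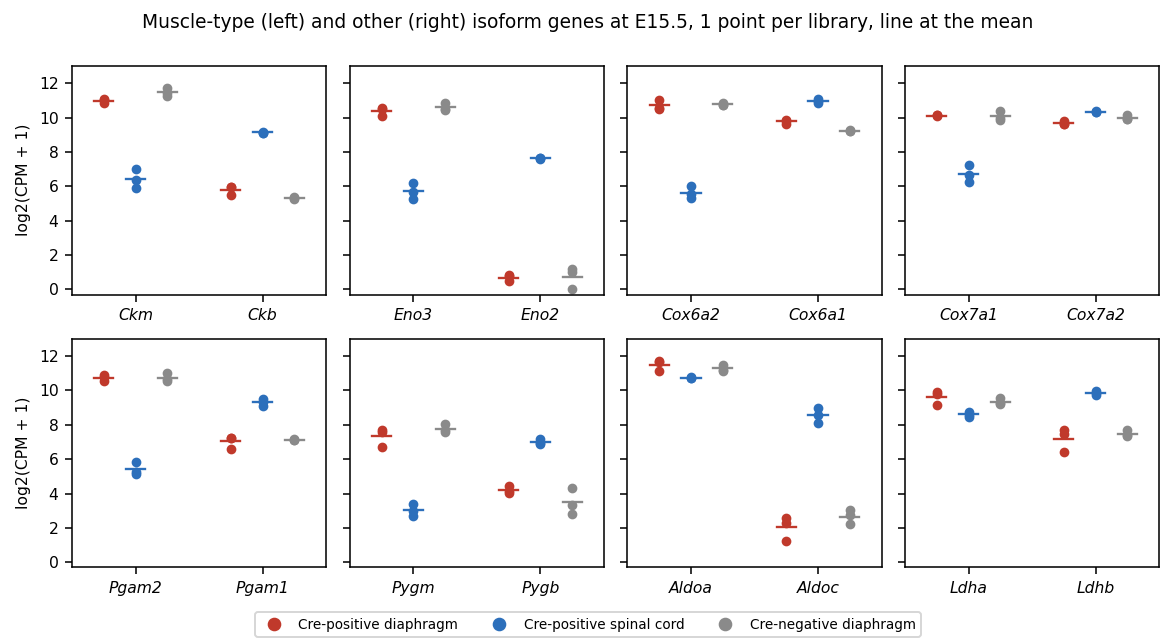
Levels of 8 pairs of muscle-type (left in each panel) and other (right) isoform genes at E15.5, as log2(CPM + 1), 1 point per library with a line at the mean, for Cre-positive diaphragm, Cre-positive spinal cord and Cre-negative diaphragm. In CPM each muscle-type gene is higher in diaphragm and each other gene lower, least so Cox7a2, whose difference is near the median of all genes, and Cre-positive and Cre-negative diaphragm lie close together.

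The start regions of the enolase pair, shown because the pair splits between the tissues, come from the same source and window, with the E-box in capitals.
Eno3, chr11:70656926-70657225, plus strand: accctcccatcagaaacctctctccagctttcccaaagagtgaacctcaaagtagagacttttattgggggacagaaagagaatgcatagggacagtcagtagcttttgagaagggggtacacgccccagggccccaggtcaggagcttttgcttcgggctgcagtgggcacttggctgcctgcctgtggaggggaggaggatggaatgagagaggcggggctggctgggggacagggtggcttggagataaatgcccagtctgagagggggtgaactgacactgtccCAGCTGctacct
Eno2, chr6:124769624-124769923, minus strand: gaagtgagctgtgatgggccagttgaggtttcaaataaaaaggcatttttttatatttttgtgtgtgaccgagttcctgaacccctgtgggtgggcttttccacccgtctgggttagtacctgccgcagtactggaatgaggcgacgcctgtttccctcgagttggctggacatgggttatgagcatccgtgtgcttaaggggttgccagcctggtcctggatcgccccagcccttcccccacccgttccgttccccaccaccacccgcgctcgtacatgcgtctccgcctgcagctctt
The Eno3 region holds 1 E-box, near its end, and these letters are not in the Eno2 window.

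Genes of red blood cells and their precursors filled a large share of the diaphragm libraries. The 14 erythroid genes took 12.97%, 21.6% and 14.6% of the Cre-positive diaphragm libraries, 0.544%, 0.403% and 0.496% of the cord libraries and 11.8%, 12.4% and 12.4% of the Cre-negative ones, with diaphragm replicate 2 the highest. Of these genes 13 were higher in diaphragm, 12 by at least 2 (log2) (median 4.81), and Hba-x did not pass the threshold. Hbb-bt, an adult beta-globin, had 21352, 34746 and 23622 CPM in diaphragm and 614, 512 and 558 CPM in cord (log2 difference 5.53, SE 0.25, adjusted p = 1.1e-13). The globin genes of a cluster are nearly identical, so single globin levels are uncertain. Slc4a1, the band 3 anion exchanger of red cells, had 128, 240.1 and 145 CPM in diaphragm and 0.529, 0.235 and 0.344 CPM in cord, 463-fold higher in diaphragm.

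The largest positive differences were of hepatocyte genes. All 18 were higher in diaphragm, 17 by at least 2 (log2), with a median log2 difference of 7.63, and they took 2.15%, 1.82% and 2.11% of Cre-positive diaphragm, 0.0107%, 0.00483% and 0.00834% of cord and 2.60%, 2.50% and 2.53% of Cre-negative diaphragm. The 12 genes with the largest positive differences, at 9.32 down to 7.98, were Apoc2, Fabp1, Alb, Apoc4, Afp, Fgb, Ttr, Ambp, Ahsg, Serpina1b, Apom and Serpina1e, which all encode proteins made by liver. The Serpina1 copies are nearly identical and their single levels uncertain. Alb, serum albumin, had 2706, 2772 and 2758 CPM in Cre-positive diaphragm, 10.2, 0.753 and 7.61 CPM in cord and 3529, 3582 and 3694 CPM in Cre-negative diaphragm (log2 difference 8.95, SE 0.76, adjusted p = 2.1e-09). Afp, the fetal serum protein alpha-fetoprotein, had 2269.7, 2089 and 2292 CPM in Cre-positive diaphragm, 6.68, 1.05 and 5.30 CPM in cord and 4169, 4789 and 5034 CPM in Cre-negative diaphragm (log2 difference 8.90, SE 0.71, adjusted p = 6.9e-10). Both were higher in Cre-negative than in Cre-positive diaphragm. In cord, replicate 2 had the lowest level of Alb and Afp, and of the 18 genes none was highest there. Apoc2, which activates lipoprotein lipase, had 1883, 1254 and 1794 CPM in diaphragm and 2.43, 0.534 and 2.06 CPM in cord (log2 difference 9.32, SE 0.55, adjusted p = 6.1e-12). The part of these transcripts in other differences was not tested.

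The Alb start region is shown with GTTAAT, the core of the site of the liver factor HNF1, in capitals (same source and window, searched on both strands, motif chosen after the values were seen).
Alb, chr5:90460620-90460919, plus strand: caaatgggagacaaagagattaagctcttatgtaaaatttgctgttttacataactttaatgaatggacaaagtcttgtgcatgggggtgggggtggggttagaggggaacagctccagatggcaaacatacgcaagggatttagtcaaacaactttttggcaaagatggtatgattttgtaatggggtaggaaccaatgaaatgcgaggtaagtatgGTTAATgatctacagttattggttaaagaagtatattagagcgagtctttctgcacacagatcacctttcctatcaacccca
Of all start regions 7.10% held these letters on either strand, against 7 of 17 regions (41.2%) for 15 of the 18 hepatocyte genes. They were also in 3 of 14 regions (21.4%) of the axonal cytoskeleton genes, all lower in diaphragm, and in 9.09% of regions of genes higher in diaphragm by at least 2 (log2) and 5.05% of those lower by as much.

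Pancreatic, cartilage and bone genes differed widely between the diaphragm libraries. Of 17 pancreatic acinar genes 9 were tested, of which 6 were higher in diaphragm and 1, Pnlip, lower (median 2.66), and the median was -0.85 without the intermediate libraries, -0.40 without diaphragm replicate 1 and -0.31 without diaphragm replicate 3. Clps, the lipase cofactor colipase, had 228, 8.76 and 189 CPM in Cre-positive diaphragm, no read in cord and 105, 354 and 419 CPM in Cre-negative diaphragm, which is at least 3030.5-fold higher in Cre-positive diaphragm than in cord. The 20 cartilage genes took 0.545%, 0.0467% and 0.454% of Cre-positive diaphragm, 0.0381%, 0.0368% and 0.0381% of cord and 0.0447%, 0.0159% and 0.00732% of Cre-negative diaphragm. Of these, 14 were higher in diaphragm and 6 not past the threshold (median 2.19), while 8 were higher without the intermediate libraries and 19 without diaphragm replicate 2. Mia, a protein secreted by chondrocytes, had 1888, 146 and 1567 CPM in diaphragm and 87.6, 79.9 and 92.5 CPM in cord (log2 difference 3.12, SE 0.63, adjusted p = 1.8e-04), replicate 2 being far below the other diaphragm libraries.

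Bone genes took 0.0397%, 0.000929% and 0.0322% of Cre-positive diaphragm and 0.0414%, 0.0436% and 0.0441% of cord. In Cre-negative diaphragm they took 0.00371%, 0.00449% and 0.00379%, above Cre-positive replicate 2 and below replicates 1 and 3. Of the 11 tested, 6 were lower in diaphragm and 5 not past the threshold (median -0.79), close to the 52.1% of all genes that were lower and their median of -0.58, and DESeq2 and edgeR on recovered reads called 1 lower. Without diaphragm replicate 2, 3 bone genes were higher and 5 lower. Spp1, osteopontin, had 168, 1.96 and 135 CPM in diaphragm and 275, 271 and 289 CPM in cord (log2 difference -2.77, adjusted p = 0.014), and without diaphragm replicate 2 the difference was -0.88 (adjusted p = 0.098), so its size rests on that library. DESeq2 and edgeR gave -0.89 and -0.81 for Spp1. In a limma fit of the 6 E15.5 libraries alone its difference was -2.77 with adjusted p = 0.14. Bglap, the bone matrix protein osteocalcin, had 7.06, 0 and 4.40 CPM in diaphragm and 33.9, 19.5 and 28.8 CPM in cord. Both genes were thus detected in every cord library.

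Stromal, vascular and immune genes were higher in diaphragm. Of 22 fibroblast and connective tissue genes, 21 were higher and Pdgfra was not past the threshold (median 2.34), with a share of 0.283% to 0.373% in Cre-positive diaphragm, 0.0677% to 0.0896% in cord and 0.455% to 0.462% in Cre-negative diaphragm. Mfap4, an elastic fibre protein, had 131, 119 and 127 CPM in diaphragm and 9.03, 13.2 and 10.6 CPM in cord (log2 difference 3.42, SE 0.29, adjusted p = 2.3e-09). Col5a1, a fibrillar collagen chain, had 82.1, 70.8 and 79.9 CPM in diaphragm and 5.17, 9.80 and 6.81 CPM in cord. Of 15 macrophage and microglia genes 13 were higher in diaphragm and 2 not past the threshold (median 1.86). Lyz2, a lysozyme of myeloid cells, had 92.6, 88.1 and 91.5 CPM in diaphragm and 14.2, 11.9 and 13.7 CPM in cord (log2 difference 2.69, SE 0.28, adjusted p = 3.9e-08), and C1qa, a complement subunit of macrophages and microglia, 50.9, 59.0 and 50.8 CPM in diaphragm and 12.2, 9.50 and 10.3 CPM in cord. Of 15 endothelial genes 10 were higher, 1 lower and 4 not past the threshold (median 0.95). Cdh5, the cadherin of vessel walls, had 16.9, 18.1 and 17.1 CPM in diaphragm and 2.43, 4.44 and 2.63 CPM in cord (log2 difference 2.17, SE 0.21, adjusted p = 2.0e-08). The lower gene was Plvap, a protein of fenestrated vessels, at log2 difference -0.98, a call lost with TMM factors (adjusted p = 0.24).

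The translation machinery differed less. Of 79 genes for cytosolic ribosomal proteins, 67 were higher in diaphragm (21.5% of all genes were), 1 lower and 11 not past the threshold, with a median log2 difference of 0.70 in CPM and 0.91 to 1.404 under the alternatives that rescale all genes. They took 14.8%, 13.3% and 14.5% of Cre-positive diaphragm, 7.98%, 9.86% and 8.66% of cord and 15.47%, 15.99% and 16.1% of Cre-negative diaphragm. Rpsa, a small-subunit protein that is also known as a laminin receptor, had 2761, 1959.6 and 2526 CPM in diaphragm and 691, 775 and 705 CPM in cord (log2 difference 1.72, SE 0.10, adjusted p = 3.0e-12). Rps12, of the small subunit, had 2809, 2057 and 2750.5 CPM in diaphragm and 668, 881 and 719 CPM in cord. Rpl22, the protein that the Ribo-tag allele tags, was the lower member, with 51.1, 41.1 and 47.3 CPM in diaphragm, 52.7, 64.8 and 57.9 CPM in cord and 91.1, 81.1 and 74.2 CPM in Cre-negative diaphragm (log2 difference -0.32, adjusted p = 0.029). That sign turned under rescaling, to 0.29 with TMM factors and 0.51 with quantile normalization, so no direction can be given for Rpl22. Many ribosomal protein genes have processed copies in the genome, which makes their single levels less certain.

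Translation factors had no common direction: 9 of 34 were higher in diaphragm (21.5% of all genes were), 17 lower (52.1% of all genes were) and 8 not past the threshold. These counts are near those of genes at large. The median was -0.25, against -0.58 for all genes, and with TMM factors 20 were higher and 10 lower (median 0.38). The sign of the median also turned with each of the other rescalings. Their summed share was higher in diaphragm and opposite in sign to the median, at 1.203% to 1.44% against 1.09% to 1.198% in cord. Single members differed strongly. Eif4ebp1, the repressor that binds the cap-binding protein, had 320.0, 309 and 317 CPM in diaphragm and 50.7, 55.2 and 53.1 CPM in cord (log2 difference 2.55, SE 0.21, adjusted p = 1.7e-09). Eef1a2, the elongation factor form of neurons and mature muscle, had 2.98, 2.10 and 2.65 CPM in diaphragm and 44.6, 53.8 and 48.5 CPM in cord (log2 difference -3.81, SE 0.13, adjusted p = 6.4e-16). Eif4a2, a cap-complex helicase, had 105, 115 and 105 CPM in diaphragm and 492, 466 and 494 CPM in cord. These 3 kept their direction under every scaling tried.

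Genes of energy metabolism had no common direction. Of 77 nuclear genes of the respiratory chain, 52 were lower in diaphragm (52.1% of all genes tested were), 8 higher and 17 not past the threshold. Their summed share was 10.8% to 11.2% in Cre-positive diaphragm, 13.2% to 13.3% in cord and 9.91% to 10.9% in Cre-negative diaphragm. Their median of -0.48 lay near that of all genes. With TMM factors 26 were higher and 16 lower (median 0.16), and the median was also positive with RLE, DESeq2 and edgeR but stayed negative with quantile normalization (-0.42). The muscle subunits of cytochrome oxidase stood out. Cox6a2 had 1461, 2089 and 1528 CPM in diaphragm and 39.1, 63.5 and 45.5 CPM in cord (log2 difference 5.08, SE 0.47, adjusted p = 8.4e-09), and Cox7a1 had 1087, 1129 and 1115 CPM in diaphragm and 73.7, 148 and 101 CPM in cord (log2 difference 3.41, SE 0.19, adjusted p = 3.0e-12). The most negative difference was that of Ndufb2, a complex I subunit, with 324, 608 and 385 CPM in diaphragm and 1716, 1201 and 1478 CPM in cord (log2 difference -1.77). Of 22 glycolysis genes 8 were higher (21.5% of all genes were), 10 lower (52.1% of all genes were) and 4 not past the threshold. Their median was -0.13, against -0.58 for all genes, and was 0.29 to 0.58 under the rescalings and 0.04 without diaphragm replicate 2. Their summed share was 1.61%, 1.06% and 1.51% in diaphragm and 1.14%, 1.05% and 1.10% in cord and overlapped (exact permutation p = 0.3). Pgam2, the muscle phosphoglycerate mutase, had 1873, 1485 and 1792 CPM in diaphragm and 34.8, 56.3 and 37.9 CPM in cord, and Aldoc, the brain aldolase, 5.08, 1.34 and 3.90 CPM in diaphragm and 494, 275 and 383 CPM in cord.

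Proliferation and fetal growth genes were higher in diaphragm. All 24 cell cycle genes were, 18 by at least 2 (log2) (median 2.70), with 0.0918%, 0.114% and 0.0958% of Cre-positive diaphragm, 0.0170%, 0.0164% and 0.0167% of cord and 0.110%, 0.128% and 0.135% of Cre-negative diaphragm. Mki67, the marker of dividing cells Ki-67, had 42.5, 63.8 and 47.0 CPM in diaphragm and 1.87, 2.39 and 2.16 CPM in cord (log2 difference 4.04, SE 0.31, adjusted p = 4.7e-10). Birc5, survivin of the dividing spindle, had 132, 199.5 and 139 CPM in diaphragm and 9.48, 10.1 and 9.86 CPM in cord. Both were highest in diaphragm replicate 2, the library with the most erythroid RNA, whose part in this was not tested. All 11 tested fetal growth genes were higher as well (median 2.29). Igf2, the imprinted fetal insulin-like growth factor, had 1468, 1067 and 1388 CPM in diaphragm and 73.0, 133 and 87.7 CPM in cord (log2 difference 3.76, SE 0.30, adjusted p = 9.0e-10). Cdkn1c, an imprinted inhibitor of cell division, had 1612, 1087 and 1526 CPM in diaphragm and 121, 169 and 140.2 CPM in cord (log2 difference 3.28, SE 0.20, adjusted p = 7.8e-12).

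Hox genes, which mark position along the body axis, were mostly lower in diaphragm. Of 29 tested, 23 were lower (52.1% of all genes tested were), 3 (Hoxa11, Hoxd9 and Hoxd10) higher and 3 not past the threshold. Their median was -1.73, against -0.58 for all genes. Only 1 tested Hox gene had all 3 diaphragm values above all 3 cord values, so others called higher overlapped between the tissues. Hoxb9 had 0.866, 0.640 and 0.855 CPM in diaphragm and 67.2, 76.6 and 69.0 CPM in cord (log2 difference -5.33, SE 0.14, adjusted p = 2.1e-17). Hoxb8 had 0.157, 0.0210 and 0.155 CPM in diaphragm and 33.6, 36.0 and 38.0 CPM in cord. Hoxc8 had 24.2, 5.23 and 20.4 CPM in diaphragm and 284, 401 and 337 CPM in cord (log2 difference -4.50, SE 0.39, adjusted p = 2.3e-09), with diaphragm replicate 2 the lowest. The labels do not state which levels of the cord were taken.

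The tissue difference at E15.5 was then set against that at later ages in the same fit. Taken as diaphragm minus cord, it was more positive at E15.5 than at P0.5 for 3978 genes (26.8%) and more negative for 1756 (11.8%). Against P10 the counts were 3788 (25.5%) and 3255 (21.9%), and against adults 4968 (33.5%) and 3627 (24.5%). Without the intermediate libraries the counts in both directions together were 1463 against P0.5, 2778 against P10 and 4730 against adults, in place of 5734, 7043 and 8595. The hepatocyte median of 7.63 at E15.5 was 4.62 at P0.5, 2.90 at P10 and 0.90 in adults, and the erythroid median of 4.81 was 0.99, 0.05 and 0.14 at those ages. The cell cycle median of 2.70 was 0.74, 0.84 and -0.10. The contractile median of 4.12 was 4.86, 5.31 and 6.58, and the axonal cytoskeleton median of -5.59 was -6.71, -6.28 and -6.93. The later medians were not tested against those of E15.5. The motor neuron median of -3.97 was -3.72, -4.06 and -3.77.

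The levels of single genes by age are given with the test of the change in their tissue difference. Chrng had 43.7 ± 7.05 CPM in diaphragm at E15.5, 9.41 ± 3.45 CPM at P0.5, 1.64 ± 0.839 CPM at P10 and no read in adults (SD, n = 3 each), while cord stayed at 0.590 ± 0.305 CPM or less. Its tissue difference at E15.5 exceeded that in adults by 4.82, SE 0.34, adjusted p = 7.0e-10. Alb had 2746 ± 34.8 CPM in diaphragm at E15.5, 927 ± 1129 CPM at P0.5, 100.4 ± 63.6 CPM at P10 and 23.3 ± 9.61 CPM in adults, the P0.5 libraries being spread widely. In diaphragm Acta1 had 8405 ± 848 CPM at E15.5 and 36518 ± 2736 CPM in adults. In cord Acta1 had 384 ± 119 CPM at E15.5, 1535 ± 975 CPM at P0.5, 73.1 ± 49.3 CPM at P10 and 1.76 ± 0.572 CPM in adults, and its tissue difference was 4.49 at E15.5 and 13.71 in adults (difference between ages -9.22, SE 0.66, adjusted p = 6.7e-10). Acta1 in cord was spread widely at P0.5 and lowest in adults.

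Neuronal genes differed in how their tissue gap compared with later ages. Nefm had 7.46 ± 1.77 CPM in Cre-positive diaphragm at E15.5, 1.201 ± 0.105 CPM at P0.5, 0.714 ± 0.295 CPM at P10 and 1.16 ± 0.552 CPM in adults, and cord had 2404 ± 145 CPM, 2868 ± 178 CPM, 4086 ± 257 CPM and 4961 ± 122.8 CPM at the same ages. Its tissue difference of -8.17 at E15.5 was -11.20 in adults (difference between ages 3.03, SE 0.23, adjusted p = 1.2e-09). Snap25 had 3.27 ± 0.698 CPM in diaphragm at E15.5 and 0.0270 ± 0.0309 CPM at P0.5, and 571 ± 58.9 CPM in cord at E15.5 and 746 ± 49.0 CPM at P0.5 (difference between ages 2.44, SE 0.18, adjusted p = 4.3e-09). Slc18a3 had 0.549 ± 0.661 CPM in diaphragm at E15.5 and 0.0693 ± 0.00908 CPM in adults. In cord it had 233 ± 25.2 CPM at E15.5 and 170 ± 3.22 CPM in adults. Its tissue difference was -7.32 at E15.5 and -7.32 in adults (SE of the difference between ages 0.27, adjusted p = 0.998). Both diaphragm means are under 1 CPM, where log2(CPM + 1) changes little, so these equal values do not show an equal CPM ratio. Glra2 had 111 ± 9.24 CPM in cord at E15.5, 53.6 ± 2.80 CPM at P0.5, 17.4 ± 2.88 CPM at P10 and 0.998 ± 0.176 CPM in adults, and its tissue difference was smaller in adults (difference between ages -5.81, SE 0.17, adjusted p = 3.1e-15).

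**Figure D5:**
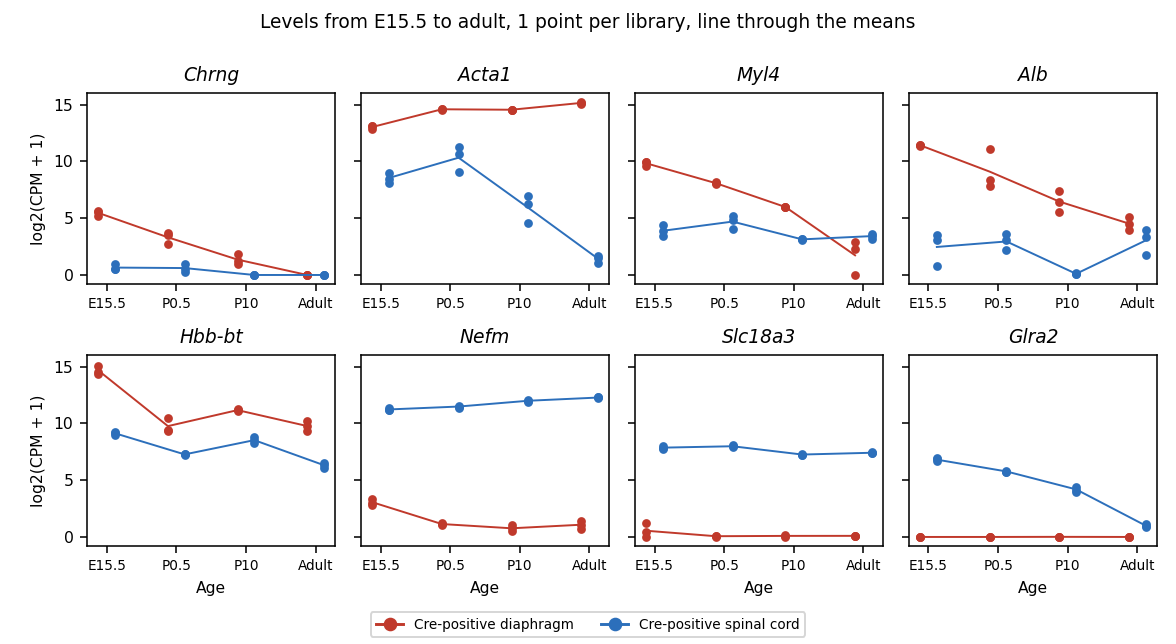
Levels of 8 genes in Cre-positive diaphragm and Cre-positive spinal cord at E15.5, P0.5, P10 and in adults, as log2(CPM + 1), 1 point per library with lines through the means. In diaphragm Chrng, Myl4 and Alb are lower at each later age, in cord Acta1 is lowest in adults, and Nefm and Slc18a3 stay far higher in cord at every age.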

How the data were processed

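RNA purified through the HA tag was measured by RNA-seq, per the labels, with RNeasy micro extraction and BGI's standard library protocol. The submitters' processing notes name the build mm10 and the tools RSEM 1.2.12 and Bowtie2 2.2.5. The deposited values are CPM per gene: each column adds up to 1000000 over 18845 genes. In every library the authors' CPM values are multiples of the step of 1 read (100% of values within 0.1 of a whole number), which gave the depths. Of the gene IDs, 18719 are in the RefSeq list for GRCm38.p6.

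The tissue difference was fitted with limma 3.58.1 (trend and robust options, R 4.3.3) on the log2 of CPM plus a pseudocount of 1. A gene entered if 3 or more of the 24 Cre-positive libraries of both tissues and 4 ages reached 1 CPM, and the model was fitted with 1 mean per tissue and age and 16 residual degrees of freedom. The p-values of this fit are Benjamini-Hochberg adjusted over 14831 genes. Those of an alternative setting are adjusted over the genes tested in that setting, and exact permutation p-values are not adjusted. Gene lists (31, with 739 genes in the table and 711 tested), members and alternatives were chosen with earlier results of these data known. Named genes are up to 4 called members per list and direction with the largest difference, at a mean of 5 CPM or more in the higher tissue and no overlap, the 12 largest differences per direction at 50 CPM or more, a fixed set of cholinergic, receptor, creatine kinase and ribosomal genes, and the 4 listed genes per direction that changed most against adults. Members that went against their list or missed the threshold, and Syp and Stmn3, were named after their values were seen. The alternative settings were no filter, a pseudocount of 0.1, TMM, RLE and quantile scaling, a total without erythroid and contractile genes, the replicate number as a block, fits without single or intermediate libraries, a fit of the 6 libraries, and edgeR 4.0.16 and DESeq2 1.42.0 on the recovered reads of 23 libraries, without P0.5 Cre-positive diaphragm replicate 3, whose step of 1 read did not pass a second check of whole reads. The fit was also run on simulated libraries, drawn independently from the cord means with few changed genes. The data have many called genes and libraries close to weighted sums of others. That run therefore does not show how the p-values behave here. Some named genes are not reported here.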

Additional observations from a re-analysis of the deposited data

Results flagged for a closer look

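The tissue difference (log2 scale, diaphragm minus cord) of 8 genes changed most between E15.5 and adults among listed genes, by a test of the difference between ages in the limma fit. On the positive side, the difference at E15.5 exceeded that in adults by 9.68 for Trf (transferrin), 9.58 for Apoc2, 8.98 for Afp and 8.56 for Apoh, with adjusted p-values of 8.3e-09, 3.8e-09, 2.9e-07 and 3.8e-06. Trf had 925, 641 and 877 CPM in diaphragm and 7.75, 3.58 and 6.78 CPM in cord at E15.5, and 25.7 ± 3.73 CPM in diaphragm and 183 ± 18.1 CPM in cord in adults (SD, n = 3 each). Apoc2 and Afp had no read in adult diaphragm.

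On the negative side, the change was -9.22 for Acta1, -8.48 for Tcap (the Z-disc protein telethonin), -8.47 for Tnnt3 and -8.43 for Tnni2 (troponin subunits of fast muscle), with adjusted p-values of 6.7e-10, 9.6e-10, 5.2e-08 and 4.0e-08. Tcap had 217, 240.0 and 204 CPM in diaphragm and 8.20, 12.1 and 9.92 CPM in cord at E15.5, against 9159.7 ± 394 CPM in diaphragm and 0.275 ± 0.139 CPM in cord in adults. Tnnt3 had 187 ± 70.4 CPM in E15.5 cord and 0.483 ± 0.339 CPM in adult cord. Tnni2 had 208 ± 91.2 CPM in E15.5 cord and 1.26 ± 0.899 CPM in adult cord.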

How the results depend on the processing

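Of 2876 values of the 170 named genes under the alternatives, 2828 kept their direction and their side of the threshold, 38 fell short of it, 2 newly passed and 8 reversed, and 160 genes did not change under any of them. The reversed ones were Dtna (main value -0.63, 0.11 with quantile normalization and 0.059 with edgeR) and Rpl22 (main value -0.32, 0.29 with TMM factors, 0.27 with RLE size factors, 0.51 with quantile normalization, 0.086 with the total without erythroid and contractile genes, 0.28 with DESeq2 and 0.36 with edgeR). The other genes that fell short in some settings were Plvap, Comp, Bglap, Bglap2, Spp1, Dmp1 and Eif2s3x, and Chrne newly passed with DESeq2 and edgeR. The adjusted p of Calcb in DESeq2 was not given by the tool. The count of called genes (10922) ranged from 8265 without the intermediate libraries to 12164 with no filter, and from 10272 to 10594 when each library was left out. Called genes higher in diaphragm by at least 2 (log2) numbered 978 (920 to 1029 leaving out each library) but 1624 with a pseudocount of 0.1, 1521 with quantile normalization, 2353 with DESeq2 and 2421 with edgeR. Those lower by as much numbered 2526 (2413 to 2620 leaving out each library) but 3646 with a pseudocount of 0.1, 1658 with TMM factors, 1682 with RLE size factors and 1581 with quantile normalization. Without the intermediate libraries, which leaves fewer samples, the counts against later ages were 1463 for P0.5, 2778 for P10 and 4730 for adults. DESeq2 and edgeR called 9813 and 9326 genes, 47.0% and 49.98% of them higher in diaphragm. The replicate block gave 10813 called genes. Same-numbered diaphragm and cord libraries at E15.5 did not deviate together (correlations -0.03, -0.04 and -0.05). With 3 libraries per group, of which 1 is near a weighted sum of the others, this cannot decide whether the numbers pair samples. The causes of the changes between settings were not tested. Depth limits only genes near 3 reads, and intervals and floors cover counting error only.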
